A study of Mus musculus with 139 samples.

Results

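The comparison described here asks whether a short loss of the RNA exosome subunit EXOSC2 changed RNA in the nucleoplasm by a different amount than in the cytosol of mouse embryonic stem cells (ESCs). It rests on 8 of the 139 samples of the series, picked by their labels and not by any measured value. For each gene the change with indole-3-acetic acid (IAA) in cytosol, 4 h minus 0 h, was subtracted from the same change in nucleoplasm, on the scale of log2(FPKM + 1). FPKM is a fragment count divided by transcript length and by the size of the library. A positive difference therefore means that the nucleoplasm changed upward relative to the cytosol. Of 52885 genes listed, 13262 had at least 1 FPKM in at least 2 of the 8 libraries and were tested.

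All 8 libraries came from the line AID-FBEXOSC2, in which EXOSC2 carries an auxin-inducible degron, and IAA is the auxin that has the tagged protein degraded. The first group was nucleoplasm from cells given 0.5 mM IAA for 4 h, and the second was nucleoplasm from cells at 0 h with no treatment. The third group was cytosol after 4 h of 0.5 mM IAA, and the fourth was cytosol at 0 h with no treatment. Each group had 2 libraries, labelled replicates 1 and 2. Nothing in the labels says how replicates were made, so p-values measure the spread between these samples, which may be technical. The cells grew on gelatin in serum with leukemia inhibitory factor, and the labels do not say whether the line is 1 clone. The tag is in every group and no untagged cells given IAA are among the 8 libraries, so an effect of IAA itself and loss of EXOSC2 cannot be told apart. Cells were first opened with a mild detergent to release the cytosol, and salt, urea and more detergent then released the soluble nucleoplasm. RNA was depleted of ribosomal RNA, which keeps transcripts without a poly(A) tail.

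As background, the RNA exosome is a ring-shaped complex that degrades RNA from its free 3′ end. In the nucleus, adaptor complexes built around the helicase MTR4 bring it short-lived transcripts of promoters and enhancers, unspliced or unexported RNA, and the precursors of ribosomal and small nucleolar RNA. In the cytosol the same ring works with the SKI complex on messenger RNA. A transcript that the exosome removes in the nucleus can therefore build up first in the nucleoplasm, while export and cytosolic decay set how much of it reaches the cytosol.

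The labelled cells and fractions were checked against marker genes. All 9 ESC markers reached 1 FPKM in each group, 0 of 4 endoderm markers did in any group, and 1 or 2 of 6 fibroblast markers did. Of 6 trophoblast markers 4 did in cytosol at 0 h and 3 in each other group. They summed to 9.07 to 11.4 FPKM in nucleoplasm at 4 h and 12.9 to 13.3 FPKM there at 0 h. The cytosolic sums were 19.6 to 20.5 FPKM at 4 h and 20.9 to 23.2 FPKM at 0 h. The 3 neural markers listed summed to 19.7 and 19.8 FPKM in nucleoplasm at 4 h, against 8.49 to 9.64 FPKM there at 0 h. In cytosol they summed to 15.7 to 17.6 FPKM at 4 h and 7.65 to 8.18 FPKM at 0 h, and their part in the results was not tested. The transcription factor Neurod1 alone made up the higher sums, with 18.5 and 17.8 FPKM in nucleoplasm at 4 h, against 6.51 and 7.7 FPKM there at 0 h, and 13.7 and 15.3 FPKM in cytosol at 4 h, against 5.23 and 4.76 FPKM there at 0 h. Pax6 and Sox1 were between 0.412 and 2.03 FPKM in each library, and neither had a higher mean at 4 h in either fraction. The 8 nuclear RNAs summed to 70300 to 72900 FPKM in nucleoplasm at 4 h, 85700 to 95000 FPKM there at 0 h, 40100 FPKM in cytosol at 4 h and 36100 to 37400 FPKM there at 0 h. As a sum the 7 cytosolic messenger RNAs ran the other way. In nucleoplasm they summed to 2910 to 3130 FPKM at 4 h and 3540 to 3910 FPKM at 0 h. In cytosol it was 6310 to 6880 FPKM at 4 h and 5870 to 6230 FPKM at 0 h. Gapdh, listed low throughout, went against the sum, with 1.18 and 0.957 FPKM in nucleoplasm at 0 h. Its values in cytosol at 0 h were 0.349 and 0.527 FPKM. The 6 mitochondrially encoded messenger RNAs had higher sums in the nucleoplasm extract than in cytosol. Sums in the extract were 9610 to 10200 FPKM at 4 h and 11500 to 12300 FPKM at 0 h. Those in cytosol were 377 to 447 FPKM at 4 h and 408 to 418 FPKM at 0 h. The extract called nucleoplasm thus held RNA of an organelle outside the nucleus. Replicates correlated across genes at 0.9675 to 0.9708 on the log2 scale. The abundant noncoding RNA Rn7sk took 12.2% to 14% of summed FPKM in nucleoplasm and 5.61% to 6.1% in cytosol. It made up most of the nuclear RNA sums, with 71500 and 69000 FPKM in nucleoplasm at 4 h. Xist, another of the 8, was at most 0.0203 FPKM, and the rest were higher in nucleoplasm than in cytosol at both times. Read depth is unknown, since FPKM does not keep it.

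The nucleoplasm moved down relative to the cytosol for most genes, and a smaller set, mostly noncoding, moved up. At an adjusted p under 0.05 (limma, Benjamini-Hochberg), 172 genes had a positive difference, 1.3% of those tested, and 1443 had a negative one, 10.9%. The median difference over all genes was -0.33, with -0.26 from replicates numbered 1 and -0.40 from replicates numbered 2, and 83.4% of genes were below 0. Within the nucleoplasm 1090 genes rose (8.22%) and 5282 fell (39.8%), with a median change of -0.31. Within the cytosol 764 rose (5.76%) and 260 fell (1.96%), with a median of 0.04. In bulk fractions like these, fewer cells or nuclei in a sample and less RNA per cell cannot be told apart.

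The size of that general shift depended on how the libraries were scaled. When each library was rescaled by the median ratio of its genes to their means, the median difference moved to -0.05 and 115 genes were higher (0.867%) and 27 lower (0.204%). On the rescaled values the nucleoplasm had 1372 genes higher (10.3%) and 1427 lower (10.8%), and the cytosol had 681 higher (5.13%) and 413 lower (3.11%). The factors were 0.721 and 0.756 for nucleoplasm at 4 h, 0.870 and 0.925 for nucleoplasm at 0 h, 1.10 and 1.17 for cytosol at 4 h and 1.05 and 1.12 for cytosol at 0 h. Spike-in RNA was added per number of cells, per the labels, but the sources used here do not say whether it scaled these values. Of the genes called lower that are named below, Snhg4, Snhg12, Akap8l, Camta1, Eif4a2, Hexim1, Rec114, Sugp2, Ttc17, 4930566F21Rik and 2810001G20Rik were also called lower after rescaling, and the others were not.

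The calls lay close to the threshold. Adjusted p was 0.03 or more for 1595 of the 1615 called genes (98.8%). Every called gene had the same sign in both replicate numbers, against 77.3% of all genes. A call needs a small spread between replicates, so this agreement follows largely from the selection and is no further test. Leaving out any 1 of the 8 libraries left 6 to 17 genes higher and 8 to 18 lower. Without each library in turn, 5 higher and 7 lower genes were called every time, and none of these 12 codes for protein. Of these 12, 5 are small nucleolar RNAs listed at 0 in 6 of the 8 libraries, where a 0 can be a failed estimate. These 5 entered the test only through the libraries where they were above 0, so their calls are no further support. A smaller pseudocount of 0.1 left 37 higher and 880 lower. At both pseudocounts and after rescaling 25 higher and 25 lower genes were called, and the genes described first in each paragraph below come from these where they exist.

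**Figure D1:**
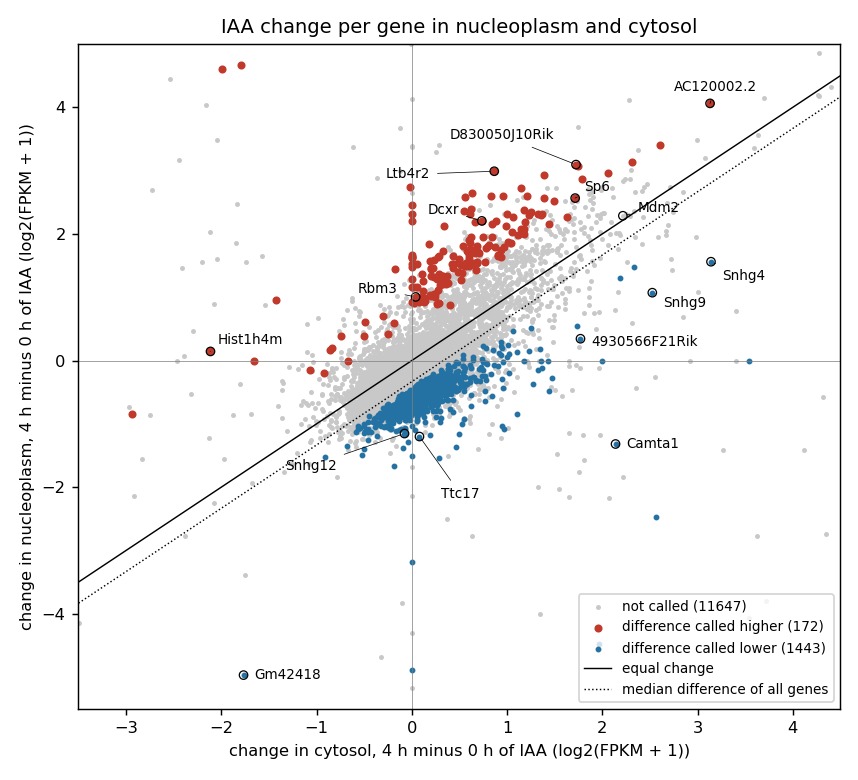
Each point is 1 of the 13262 genes tested, with its IAA change in cytosol on the horizontal axis and in nucleoplasm on the vertical axis, both as log2(FPKM + 1) at 4 h minus 0 h. The solid line marks equal change, the dotted line the median difference of -0.33, and 30 genes lie outside the axes. Red points, 172 genes, lie above the line and blue points, 1443 genes, below it, most of them where the cytosol changed little.

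What made up a difference varied by direction. Of the 172 genes called higher, 92 rose in nucleoplasm without a call in cytosol and 67 rose in both, more in nucleoplasm. Of the 1443 called lower, 1279 fell in nucleoplasm without a call in cytosol, 76 rose in cytosol without a call in nucleoplasm, and 19 fell in nucleoplasm and rose in cytosol. On rescaled values 14 of the 27 called lower fell in nucleoplasm without a call in cytosol, 7 rose in cytosol without a call in nucleoplasm and 1 moved in opposite directions. These counts restate parts of the difference itself and are no further test of it.

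Small nucleolar RNA host transcripts, whose introns carry small nucleolar RNAs and whose spliced form is noncoding, mostly moved down in nucleoplasm relative to cytosol. On the log2 scale their median for nucleoplasm minus cytosol was 1.45 at 0 h and 0.88 at 4 h. The typical host thus still had higher FPKM in nucleoplasm at 4 h. Of 18 hosts listed 17 were tested, 9 of them were called lower and 0 higher, against 10.9% lower over all genes. Their median difference was -0.69, against -0.33 over all genes, and after rescaling -0.34 against -0.05. After rescaling 2 hosts, Snhg12 and Snhg4, were called lower, and at the pseudocount of 0.1 it was 7. Within the fractions 6 of the 17 hosts rose and 7 fell in nucleoplasm, where 8.22% of all genes rose and 39.8% fell. In cytosol 7 rose and 1 fell, where 5.76% of all genes rose and 1.96% fell. The share of hosts that fell in nucleoplasm was thus near that of all genes, and the shares that rose were above it. On rescaled values 7 hosts rose and 3 fell in nucleoplasm, where 10.3% of all genes rose and 10.8% fell.

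Snhg4 (chr18:35553371-35558316, mm10) had 165 and 159 FPKM in nucleoplasm at 4 h, against 56.7 and 51.9 FPKM there at 0 h, and 77.4 and 83.8 FPKM in cytosol at 4 h, against 9.55 and 7.099 FPKM there at 0 h. It rose in both fractions, by 1.56 ± 0.13 (SE, adjusted p = 0.000643) on the log2 scale in nucleoplasm and 3.14 ± 0.13 (SE, adjusted p = 0.000106) in cytosol. None of the 4 groups overlapped, and the larger rise was in cytosol, where the untreated level was lowest. The difference between the fractions was -1.58 ± 0.19 (SE, adjusted p = 0.0361), and -1.23 (adjusted p = 0.0416) after rescaling. Its annotated span overlaps a coding gene and a small nucleolar RNA gene, so reads of these could not be separated here.

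Snhg12 (chr4:132308678-132311024, mm10) took another course. It had 86.8 and 85.9 FPKM in nucleoplasm at 4 h, against 189 and 197 FPKM there at 0 h, and 39.1 and 36.2 FPKM in cytosol at 4 h, against 40.95 and 38.5 FPKM there at 0 h. Nucleoplasm at 4 h lay far below nucleoplasm at 0 h, whereas the cytosolic groups overlapped. The difference was -1.08 ± 0.12 (SE, adjusted p = 0.0266), and -0.74 (adjusted p = 0.0462) after rescaling. At 0 h this transcript had a higher FPKM in nucleoplasm than in cytosol, and at 4 h the distance between the fractions was smaller. FPKM is relative to each library, so it does not give where most molecules of a transcript were.

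The other hosts fell between these 2 courses. Snhg15 had 53.6 and 53.1 FPKM in nucleoplasm at 4 h, against 52.2 and 47.5 FPKM there at 0 h, and 26.1 and 27.96 FPKM in cytosol at 4 h, against 13.4 and 12.2 FPKM there at 0 h, so its nucleoplasmic groups were close together and its cytosolic groups apart, with a difference of -0.92 ± 0.13 (SE, adjusted p = 0.041) and of -0.59 (adjusted p = 0.0927) after rescaling. Gas5, whose spliced form is known to be degraded during translation, had 106 and 95.03 FPKM in nucleoplasm at 4 h, against 133 and 127 FPKM there at 0 h, and 109.5 and 113 FPKM in cytosol at 4 h, against 74.4 and 79.04 FPKM there at 0 h. It fell in nucleoplasm and rose in cytosol, with changes of -0.37 and 0.53 and a difference of -0.90 ± 0.13 (SE, adjusted p = 0.041). After rescaling the difference was -0.57 (adjusted p = 0.155) and the nucleoplasmic change -0.092 (adjusted p = 0.575). Epb41l4aos differed by -1.21 ± 0.15 (SE, adjusted p = 0.0361) and Snhg9 by -1.45 ± 0.36 (SE, adjusted p = 0.0485). Snhg3 differed by -0.88 ± 0.18 (SE, adjusted p = 0.0413) after rising in both fractions. Snhg1 and Zfas1 were called with smaller differences of -0.48 and -0.48. Snhg8 was not called, at 0.077 ± 0.15 (SE, adjusted p = 0.717).

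The promoters of 4 hosts are shown because these hosts are read as a group and differ in their call. Each line gives 60 bases before and 30 from the first RefSeq start, from the RefSeq table on GRCm38.p6, 5′ to 3′ on the strand of the gene. Capitals mark a run that holds TATA between 40 and 15 bases before the start. Snhg12 (plus strand, chr4:132308618-132308707) and Snhg1 (plus strand, chr19:8723427-8723516) were called lower and hold one. Snhg15 (minus strand, chr11:6528731-6528820) was called lower and holds none, and Snhg8 (minus strand, chr3:123508307-123508396) holds one and was not called.
Snhg12: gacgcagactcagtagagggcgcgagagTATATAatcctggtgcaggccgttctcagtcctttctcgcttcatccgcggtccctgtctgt
Snhg1: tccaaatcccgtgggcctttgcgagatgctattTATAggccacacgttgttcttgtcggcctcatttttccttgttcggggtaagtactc
Snhg15: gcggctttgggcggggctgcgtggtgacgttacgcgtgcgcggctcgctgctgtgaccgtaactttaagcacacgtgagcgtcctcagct
Snhg8: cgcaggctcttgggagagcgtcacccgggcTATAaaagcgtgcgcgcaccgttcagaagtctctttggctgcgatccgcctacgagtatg

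Only the strand of the gene was searched, for the letters TATA, and the motif was chosen after these sequences were read. Of 17 tested hosts, 14 were searched. Genes of chromosome 18 were passed over, which left out Snhg4 and Epb41l4aos, both called lower, and Snhg6 had no RefSeq start. Of the 14 promoters 5 held TATA in the window (35.7%), against 1941 of 32851 RefSeq promoters (5.91%). It was in 2 of the 7 searched hosts called lower and in 3 of the 7 not called. The run thus did not sort the searched hosts by their call, and a match is a description of letters only.

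Protein-coding genes made up 1340 of the 1443 genes called lower, or 92.9%, and 29 of those called higher. Over 10766 coding genes the median difference was -0.35, close to the -0.33 of all genes, and after rescaling 7 remained called lower. Those 7 were Akap8l, Camta1, Eif4a2, Hexim1, Rec114, Sugp2 and Ttc17, and all 7 were also called at the pseudocount of 0.1. Of these, Camta1 and Ttc17 follow the rule for named genes, and the others were chosen after their values were seen.

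Ttc17, a tetratricopeptide repeat protein, had 1.58 and 1.896 FPKM in nucleoplasm at 4 h, against 5.45 and 5.12 FPKM there at 0 h, and 1.31 and 1.25 FPKM in cytosol at 4 h, against 1.13 and 1.18 FPKM there at 0 h. The nucleoplasm fell well clear of its untreated libraries, whereas the cytosolic values lay within a narrow range. Its difference was -1.28 ± 0.15 (SE, adjusted p = 0.0361), and -1.09 (adjusted p = 0.0432) after rescaling. Sugp2, a nuclear protein with a G-patch domain, had 4.21 and 3.96 FPKM in nucleoplasm at 4 h, against 8.94 and 8.96 FPKM there at 0 h, and 4.03 and 4.18 FPKM in cytosol at 4 h, against 3.73 and 3.55 FPKM there at 0 h, and it likewise fell in nucleoplasm without a call in cytosol. Its difference was -1.11 ± 0.12 (SE, adjusted p = 0.0266).

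Eif4a2 (chr16:23107444-23114117, mm10), a translation initiation helicase whose introns carry small nucleolar RNAs, had 95.3 and 92.7 FPKM in nucleoplasm at 4 h, against 212 and 204 FPKM there at 0 h, and 54.1 and 61.97 FPKM in cytosol at 4 h, against 61.6 and 60.02 FPKM there at 0 h. Its nucleoplasmic level at 4 h was below that at 0 h in each library, and the cytosolic groups overlapped. The difference was -1.07 ± 0.13 (SE, adjusted p = 0.0361), and -0.73 (adjusted p = 0.0489) after rescaling. This is the course that Snhg12 took.

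Hexim1 and Akap8l moved in opposite directions in the fractions on the deposited values. Hexim1 (chr11:103116231-103119725, mm10), which holds the elongation factor P-TEFb inactive together with the 7SK RNA, had 11.1 and 11.4 FPKM in nucleoplasm at 4 h, against 15.3 and 15.7 FPKM there at 0 h, and 22.9 and 25.5 FPKM in cytosol at 4 h, against 16.97 and 16.9 FPKM there at 0 h. It fell in nucleoplasm, with a change of -0.43 ± 0.081 (SE, adjusted p = 0.00662), and rose in cytosol, with a change of 0.49 ± 0.081 (SE, adjusted p = 0.0153), with no overlap in either fraction. The difference was -0.92 ± 0.12 (SE, adjusted p = 0.0364). After rescaling it was -0.61 (adjusted p = 0.0488), and the nucleoplasmic change, -0.17 (adjusted p = 0.114), was no longer called. Akap8l, a nuclear protein, had 9.23 and 9.47 FPKM in nucleoplasm at 4 h, against 10.9 and 12.01 FPKM there at 0 h. In cytosol it had 10.9 and 11.4 FPKM at 4 h, against 6.84 and 6.67 FPKM there at 0 h. Its difference was -0.92 ± 0.12 (SE, adjusted p = 0.038). After rescaling it was -0.60 (adjusted p = 0.0489), and the nucleoplasmic change was -0.011 (adjusted p = 0.926).

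Camta1, a calmodulin-binding transcription activator, had the most negative coding difference that passed the rule for names, -3.46 ± 0.49 (SE, adjusted p = 0.041). It had 1.798 and 1.804 FPKM in nucleoplasm at 4 h, against 4.51 and 7.85 FPKM there at 0 h, and 13.5 and 7.096 FPKM in cytosol at 4 h, against 2.02 and 1.002 FPKM there at 0 h. Both fractions varied widely between replicates, and the cytosol at 4 h stood above the other groups but for 1 nucleoplasmic library. The gene spans a long region that overlaps 7 other genes, so its reads may be shared.

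Of the largest negative differences with a gene name, 6 more coding genes and 1 pseudogene kept their sign but not their call after rescaling. Nceh1, a cholesterol ester hydrolase, differed by -1.25 ± 0.25 (SE, adjusted p = 0.0413) after falling in nucleoplasm. Lsm7, a subunit of the LSM ring that binds U6 small nuclear RNA and decaying messenger RNA, differed by -1.26 ± 0.24 (SE, adjusted p = 0.041), and the sugar transporter Slc50a1 by -1.24 ± 0.26 (SE, adjusted p = 0.0413). Both rose in cytosol without a call in nucleoplasm. Ccdc85b, Smim26 and Tmsb15b1 differed by -1.49, -1.22 and -1.93, each with a cytosolic rise. The pseudogene Gng5-ps, at -2.05, fell in nucleoplasm, and its reads may come from the parent gene.

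**Figure D2:**
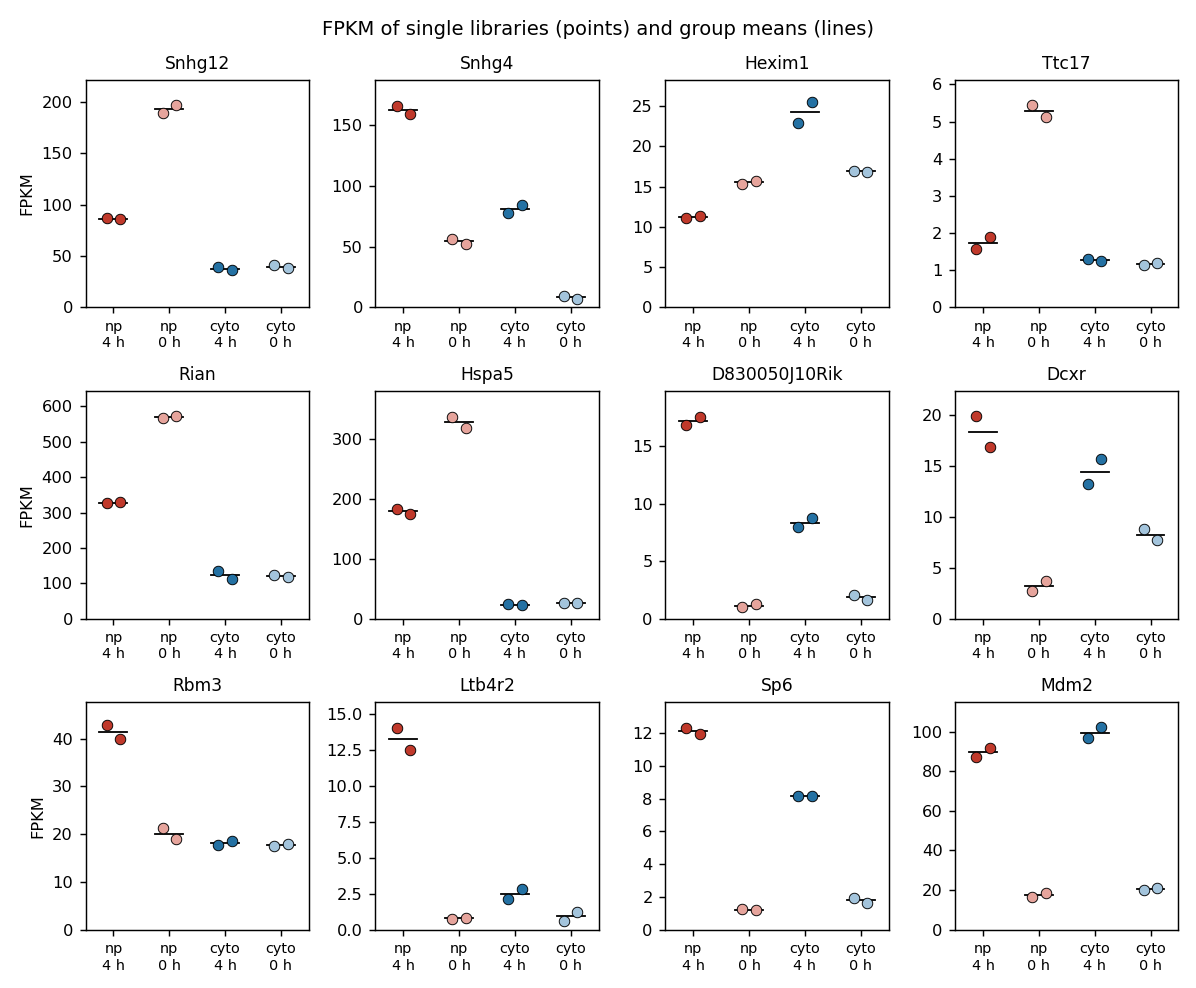
Each panel shows the FPKM of 1 gene in its 8 libraries as points, with group means as lines, on a linear axis that starts at 0. Groups from left to right are nucleoplasm at 4 h, nucleoplasm at 0 h, cytosol at 4 h and cytosol at 0 h. In Snhg12, Ttc17, Rian and Hspa5 the nucleoplasm at 4 h is below 0 h beside flat cytosol, whereas in D830050J10Rik, Dcxr, Ltb4r2 and Sp6 it is far above 0 h.

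Coding genes that moved up in the nucleoplasm relative to the cytosol were few. At both pseudocounts and after rescaling 9 were called, and Ltb4r2, Dcxr, Ptp4a3, Rbm3 and Sp6 are those that the rule names. Each of these 5 rose in nucleoplasm by 1.01 to 2.99 on the log2 scale.

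Ltb4r2 (chr14:55761428-55763229, mm10), a receptor for leukotriene B4, had 13.97 and 12.5 FPKM in nucleoplasm at 4 h, against 0.7403 and 0.836 FPKM there at 0 h, and 2.16 and 2.81 FPKM in cytosol at 4 h, against 0.602 and 1.26 FPKM there at 0 h. Nucleoplasm at 4 h stood above all the other libraries by a wide margin. The difference was 2.12 ± 0.26 (SE, adjusted p = 0.0361), and 2.54 (adjusted p = 0.0201) after rescaling. The neighbouring receptor gene Ltb4r1 had 5.17 and 6.03 FPKM in nucleoplasm at 4 h, against 0.676 and 0.2397 FPKM there at 0 h, and 0.811 and 1.09 FPKM in cytosol at 4 h, against 0.333 and 0.1399 FPKM there at 0 h, with a difference of 1.53 ± 0.26 (SE, adjusted p = 0.041) that lost its call at the pseudocount of 0.1, 1.78 (adjusted p = 0.112).

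Dcxr (chr11:120725399-120727281, mm10), a reductase of dicarbonyls and L-xylulose that is also in the list of p53 targets used here, had 19.8 and 16.8 FPKM in nucleoplasm at 4 h, against 2.75 and 3.66 FPKM there at 0 h, and 13.2 and 15.6 FPKM in cytosol at 4 h, against 8.78 and 7.72 FPKM there at 0 h. It was higher in cytosol than in nucleoplasm at 0 h, and higher in nucleoplasm at 4 h. The difference was 1.47 ± 0.21 (SE, adjusted p = 0.041), and 1.83 (adjusted p = 0.0201) after rescaling. Sp6, a transcription factor of the Sp family, had 12.3 and 11.9 FPKM in nucleoplasm at 4 h, against 1.25 and 1.18 FPKM there at 0 h, and 8.12 and 8.14 FPKM in cytosol at 4 h, against 1.92 and 1.65 FPKM there at 0 h. It rose in both fractions, with a difference of 0.85 ± 0.13 (SE, adjusted p = 0.041).

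Rbm3, a cold-inducible RNA-binding protein, had 42.9 and 39.96 FPKM in nucleoplasm at 4 h, against 21.2 and 19.1 FPKM there at 0 h, and 17.8 and 18.6 FPKM in cytosol at 4 h, against 17.4 and 17.9 FPKM there at 0 h. The nucleoplasm rose by 1.01 ± 0.086 (SE, adjusted p = 0.000644) while the cytosol moved by 0.041 ± 0.086 (SE, adjusted p = 0.826), and the cytosolic libraries overlapped. Its difference was 0.96 ± 0.12 (SE, adjusted p = 0.0375), and 1.30 (adjusted p = 0.0241) after rescaling. The gene overlaps the antisense RNA Rbm3os, and since the strand of counting is not given, reads of the pair cannot be told apart. Ptp4a3, a protein phosphatase that also rose in nucleoplasm without a call in cytosol, had 6.83 and 6.56 FPKM in nucleoplasm at 4 h, against 2.35 and 2.89 FPKM there at 0 h, and 6.75 and 7.29 FPKM in cytosol at 4 h, against 6.5 and 6.29 FPKM there at 0 h. Its difference was 0.97 ± 0.15 (SE, adjusted p = 0.041).

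The rest of the largest positive differences with gene names were less secure. Hyal1, a lysosomal hyaluronidase, had a difference of 0.98 ± 0.18 (SE, adjusted p = 0.041), but 0.30 (adjusted p = 0.492) at the pseudocount of 0.1, and it overlaps Hyal3 and Nat6. Hist1h4m, at 2.26 ± 0.43 (SE, adjusted p = 0.041), rested on a cytosolic fall to 0.448 and 1.93 FPKM at 4 h, against 7.98 and 7.84 FPKM at 0 h, and shares near-identical copies with other histone genes. Rpl30-ps6, a pseudogene of a ribosomal protein gene, differed by 2.76 ± 0.68 (SE, adjusted p = 0.0474) and lost its call after rescaling, 3.13 (adjusted p = 0.131). Exosc6, a ring subunit of the exosome, was listed near 0 in nucleoplasm at 0 h beside 5.17 and 6.08 FPKM there at 4 h, 45.6 and 48.7 FPKM in cytosol at 4 h and 15.2 and 28.3 FPKM in cytosol at 0 h. It overlaps Aars, and a value near 0 in a table of this kind can be a failed estimate, so its difference of 1.58 is not read further.

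Long noncoding RNA classes stood above the coding genes in the difference. Counted as 1 set, 6 annotated classes (long intergenic, antisense, provisional, bidirectional promoter, processed transcript and sense intronic) held 1002 tested genes. Of these 113 were called higher and 31 lower, with a median of 0.22, against 1.3% and 10.9% called and a median of -0.33 over all genes. After rescaling 77 were higher and 6 lower, with a median of 0.52 against -0.05. At the pseudocount of 0.1, however, 10 were higher and 25 lower, with a median of -0.08 against -0.40. Among the 137 of them with a mean of at least 5 FPKM, 13 were higher and 28 lower, with a median of -0.24 against -0.39. The direction of the calls in this set thus depended on the pseudocount and on the level of the genes. A low gene could also enter the test through its 2 nucleoplasm libraries at 4 h alone. The rule of entry then leans its difference upward. Gm37696, Gm26644 and Mir142hg, set out below, entered in this way, and how many others did was not counted.

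By class, 37 long intergenic RNAs were called higher and 8 lower of 316, with a median of 0.11. Antisense RNAs had 27 higher and 4 lower of 246, with a median of 0.33, and provisional transcripts, annotated as TEC, had 30 and 6 of 236, with 0.25. Bidirectional promoter RNAs, which start next to a coding gene and run away from it, had 4 and 0 of 32, with 0.38. At the pseudocount of 0.1 these medians were -0.14, 0.11, 0.03 and -0.04, and the counts called higher were 3, 2, 2 and 1. The 1099 processed pseudogenes had a median of -0.24 and the 145 small nucleolar RNAs one of -0.08. All 4 long noncoding classes rose within both fractions more often than they fell. In nucleoplasm 179 long intergenic RNAs rose and 26 fell, and 171 antisense RNAs rose and 2 fell. In cytosol 106 long intergenic RNAs rose and 2 fell, and 86 antisense RNAs rose and 0 fell. Over all genes 8.22% rose and 39.8% fell in nucleoplasm, and 5.76% rose and 1.96% fell in cytosol.

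**Figure D3:**
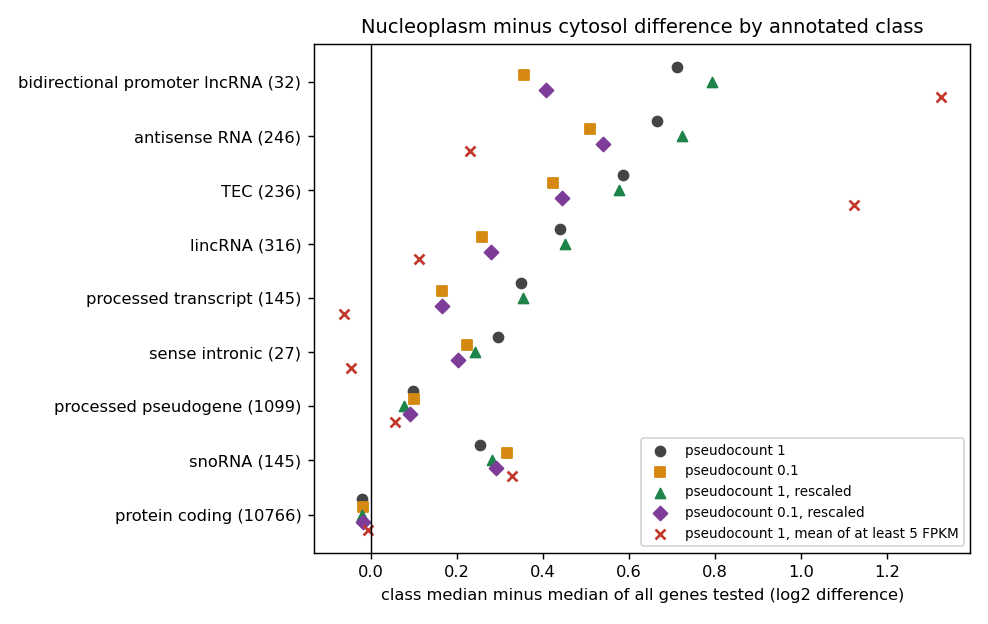
The median difference of each annotated class is shown after subtracting the median of all genes tested, so that 0 stands for the typical gene. Symbols mark the pseudocount of 1, the pseudocount of 0.1, rescaled libraries, both together, and genes with a mean of at least 5 FPKM, and numbers in brackets are genes tested. The 4 long noncoding classes at the top stay to the right of 0 under each setting, nearer to it at the pseudocount of 0.1, and protein-coding genes stay at 0.

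Bidirectional promoter RNAs could be set beside the coding gene at the same promoter. All 32 lay within 1 kb of a coding gene, at a median gap of 129 bases, and 30 of these neighbours were tested. In nucleoplasm 28 of the 32 RNAs rose and 0 fell, with a median of 1.24, where 8.22% of all genes rose and 39.8% fell. Of the 30 neighbours 1 rose and 23 fell there, with a median of -0.45. Of 10766 coding genes 5011 fell there on the deposited values and 1362 after rescaling. The neighbours were not counted in nucleoplasm after rescaling. In cytosol 20 RNAs rose and 0 fell, with a median of 1.06, where 5.76% of all genes rose and 1.96% fell. Of the neighbours 1 rose and 2 fell there, with a median of -0.01. The difference between the fractions was above that of its neighbour for 24 of 30 RNAs, by a median of 0.84. In the difference 10 neighbours were called lower and 0 higher, against 10.9% and 1.3% over all genes, and after rescaling 0 were called.

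D830050J10Rik was the bidirectional RNA called at both pseudocounts and after rescaling. It had 16.8 and 17.5 FPKM in nucleoplasm at 4 h, against 0.996 and 1.27 FPKM there at 0 h, and 7.96 and 8.75 FPKM in cytosol at 4 h, against 2.07 and 1.604 FPKM there at 0 h, so it rose in both fractions and 4 h stood clear of 0 h in each. Its difference was 1.37 ± 0.17 (SE, adjusted p = 0.0364), and 1.79 (adjusted p = 0.00603) after rescaling. Its span overlaps another gene, and the strand of counting is not given, so some of its reads cannot be assigned.

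Another pair of bidirectional RNAs depended on the pseudocount. AC120002.2 had 22.1 and 19.5 FPKM in nucleoplasm at 4 h, against 0.371 and 0.239 FPKM there at 0 h, and 10.01 and 10.3 FPKM in cytosol at 4 h, against 0.337 and 0.212 FPKM there at 0 h. It stood far above its 0 h level in both fractions. Its difference was 0.93 ± 0.16 (SE, adjusted p = 0.041), but 0.91 (adjusted p = 0.102) at the pseudocount of 0.1. 4632427E13Rik had 21.98 and 20.2 FPKM in nucleoplasm at 4 h, against 3.88 and 3.05 FPKM there at 0 h, and 1.76 and 1.596 FPKM in cytosol at 4 h, against 0.393 and 0.279 FPKM there at 0 h. Its FPKM was higher in nucleoplasm at both times, and its difference of 1.31 ± 0.17 (SE, adjusted p = 0.0383) was 0.54 (adjusted p = 0.187) at the smaller pseudocount.

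Among the long intergenic RNAs, Gm26644 had 5.53 and 5.32 FPKM in nucleoplasm at 4 h, against 0.304 and 0.288 FPKM there at 0 h, and 0.612 and 0.962 FPKM in cytosol at 4 h, against 0.148 and 0.183 FPKM there at 0 h, and its difference of 1.70 ± 0.19 (SE, adjusted p = 0.0291) held after rescaling, 2.10 (adjusted p = 0.0099), and at the smaller pseudocount, 2.09 (adjusted p = 0.0489). The antisense RNA Tsix, which in ESCs runs across the Xist gene, had 10.2 and 8.99 FPKM in nucleoplasm at 4 h, against 2.11 and 1.73 FPKM there at 0 h, and 0.559 and 1.02 FPKM in cytosol at 4 h, against 0.287 and 0.0516 FPKM there at 0 h. Its difference was 1.25 ± 0.25 (SE, adjusted p = 0.041), and 0.43 (adjusted p = 0.648) at the pseudocount of 0.1, and it cannot be separated from Xist without strand. Mir142hg, the host of the microRNA Mir142, had 5.81 and 5.995 FPKM in nucleoplasm at 4 h, against a listed 0 and 0.923 FPKM there at 0 h, and was listed at 0 in cytosol at both times. The antisense RNA Gm37696, which overlaps the coding gene Rap2b, differed by 1.41 ± 0.22 (SE, adjusted p = 0.041). Gm29170 and 6430511E19Rik differed by 1.20 and 1.17, and both overlap coding genes.

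A few noncoding RNAs went the other way. The antisense RNA 4930566F21Rik had 23.1 and 26 FPKM in nucleoplasm at 4 h, against 18.6 and 19.6 FPKM there at 0 h, and 30.4 and 35.05 FPKM in cytosol at 4 h, against 8.68 and 9.03 FPKM there at 0 h. It rose in both fractions, more in cytosol, where 4 h stood far clear of 0 h. The difference was -1.43 ± 0.14 (SE, adjusted p = 0.0226), and -1.09 (adjusted p = 0.0205) after rescaling. The antisense RNA 2810001G20Rik followed the same course at a lower level, with a difference of -1.20 ± 0.17 (SE, adjusted p = 0.041). Mir124a-1hg, host of a neuronal microRNA, had 10.9 and 9.54 FPKM in nucleoplasm at 4 h, against 11.6 and 9.203 FPKM there at 0 h, and 1.79 and 2.37 FPKM in cytosol at 4 h, against 0.457 and 0.711 FPKM there at 0 h. Only its cytosolic groups stood apart, and its difference was -0.97 ± 0.22 (SE, adjusted p = 0.0432), but -0.64 (adjusted p = 0.292) after rescaling.

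Known nuclear RNAs gave 2 genes higher and 5 lower of 20 tested, with a median of -0.43, and 1 higher and 0 lower after rescaling. Rian, a maternally expressed RNA of the Dlk1-Dio3 imprinted domain that carries small nucleolar RNAs, had 326 and 329.8 FPKM in nucleoplasm at 4 h, against 568 and 573 FPKM there at 0 h, and 134 and 113 FPKM in cytosol at 4 h, against 123 and 117 FPKM there at 0 h. Mirg, which carries microRNAs of the same domain, had 26.6 and 25.1 FPKM in nucleoplasm at 4 h, against 44.5 and 38.99 FPKM there at 0 h, and 6.72 and 6.48 FPKM in cytosol at 4 h, against 5.99 and 5.24 FPKM there at 0 h. Both fell in nucleoplasm without a call in cytosol, and the untreated libraries of nucleoplasm stood above all the others. Their differences were -0.83 ± 0.15 (SE, adjusted p = 0.041) and -0.87 ± 0.14 (SE, adjusted p = 0.041), and neither was called after rescaling. Malat1, which was chosen after its values were seen, had a difference of -0.64 ± 0.15 (SE, adjusted p = 0.0432) and -0.30 (adjusted p = 0.389) after rescaling.

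Targets of p53, a transcription factor of DNA damage and stress responses, mostly rose in each fraction. In nucleoplasm 25 of 33 rose and 3 fell, or 26 and 0 after rescaling, where 8.22% of all genes rose on the deposited values and 10.3% on the rescaled ones. In cytosol 22 rose and 0 fell, where 5.76% of all genes rose. The difference was higher in 2, Dcxr and Pvt1, and lower in 0, with a median of -0.19 against -0.33 over all genes, and 0.17 against -0.05 after rescaling. Mdm2, the ubiquitin ligase that limits p53, had 87.1 and 91.8 FPKM in nucleoplasm at 4 h, against 16.6 and 18.5 FPKM there at 0 h, and 96.5 and 102 FPKM in cytosol at 4 h, against 20.1 and 21.1 FPKM there at 0 h. Both fractions stood apart between the times, and the difference of 0.071 ± 0.12 (SE, adjusted p = 0.682) was not called. Plk2, a polo-like kinase, had 28.01 and 30.6 FPKM in nucleoplasm at 4 h, against 3.43 and 4.198 FPKM there at 0 h, and 42.8 and 46.4 FPKM in cytosol at 4 h, against 5.82 and 4.91 FPKM there at 0 h, and its difference of -0.19 ± 0.17 (SE, adjusted p = 0.429) was not called either. Both genes were chosen after their values were seen.

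Pvt1, a long noncoding RNA next to Myc, had 8.82 and 8.68 FPKM in nucleoplasm at 4 h, against 4.37 and 4.22 FPKM there at 0 h, and 5.74 and 5.88 FPKM in cytosol at 4 h, against 3.94 and 4.38 FPKM there at 0 h. It rose in both fractions and its difference was 0.48 ± 0.12 (SE, adjusted p = 0.0491), but 0.81 (adjusted p = 0.0591) after rescaling. Perp, a membrane protein induced by p53, rose in both fractions, with a difference of -0.35 ± 0.10 (SE, adjusted p = 0.064). Epha2, a receptor kinase, fell in nucleoplasm and had a difference of -0.44 ± 0.11 (SE, adjusted p = 0.052).

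Messenger RNAs translated at the endoplasmic reticulum mostly had higher FPKM in the nucleoplasm extract than in cytosol, and mostly fell there. At 0 h the 33 tested had a median of 2.93 for nucleoplasm minus cytosol on the log2 scale, and at 4 h 2.33, against -0.17 and -0.47 over all genes. In the difference 15 were called lower and 0 higher, with a median of -0.50, against 10.9% lower and a median of -0.33 over all genes, and none was called after rescaling. In nucleoplasm 28 of 33 fell, and 6 after rescaling, where 39.8% and 10.8% of all genes fell. The chaperone gene Hspa5 had 184 and 175 FPKM in nucleoplasm at 4 h, against 337 and 319.5 FPKM there at 0 h, and 24 and 22.97 FPKM in cytosol at 4 h, against 25.4 and 26.9 FPKM there at 0 h, with a difference of -0.72 ± 0.11 (SE, adjusted p = 0.041) and -0.38 (adjusted p = 0.277) after rescaling. The disulfide isomerase gene P4hb and the secreted protein gene Spp1 differed by -0.59 ± 0.11 (SE, adjusted p = 0.041) and -0.65 ± 0.12 (SE, adjusted p = 0.041), and L1td1, an RNA-binding protein gene that was in the same list, by -0.68 ± 0.12 (SE, adjusted p = 0.041). None of the 33 lay above the median of all genes in both replicate numbers, and 22 lay below it in both. Of all 13262 genes, 4080 lay above it in both and 4082 below it in both.

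Mitochondrially encoded transcripts also mostly had higher FPKM in the nucleoplasm extract, with a median of 3.64 for nucleoplasm minus cytosol at 0 h. Of 14 tested, 2 were called higher, both ribosomal RNAs, against 1.3% over all genes. mt-Rnr1 had 281 and 274 FPKM in nucleoplasm at 4 h, against 118 and 172 FPKM there at 0 h, and 22.7 and 12.04 FPKM in cytosol at 4 h, against 37.8 and 56.9 FPKM there at 0 h, and mt-Rnr2 had 781 and 648 FPKM in nucleoplasm at 4 h, against 682 and 592 FPKM there at 0 h, and 46.02 and 38.9 FPKM in cytosol at 4 h, against 86.9 and 68.7 FPKM there at 0 h. The cytosolic libraries at 4 h were below those at 0 h in both. Their differences were 2.39 ± 0.46 (SE, adjusted p = 0.041) and 1.02 ± 0.23 (SE, adjusted p = 0.0432), and neither was called after rescaling. Ribosomal RNA is the target of the depletion step, and its part in these values was not tested.

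Genes of splicing and retained introns had 13 called lower and 0 higher of 34, with a median of -0.48, against 10.9% lower over all genes, and 0 called after rescaling, with a median of -0.15. In nucleoplasm 23 fell and 0 rose, or 10 and 1 after rescaling, where 39.8% and 10.8% of all genes fell, and in cytosol 4 rose and 2 fell. Pnisr, an SR-related protein gene, had 30.1 and 30.2 FPKM in nucleoplasm at 4 h, against 36.9 and 35.4 FPKM there at 0 h, and 10.2 and 11.8 FPKM in cytosol at 4 h, against 7.005 and 7.26 FPKM there at 0 h, and it rose in cytosol without a call in nucleoplasm. Its difference was -0.81 ± 0.13 (SE, adjusted p = 0.041). The helicase gene Ddx5, the splicing factor Rbm5 and the ribonucleoprotein gene Hnrnph1 differed by -0.75, -0.68 and -0.73, each called. Rbm5 did so through a fall in nucleoplasm and Hnrnph1 through a rise in cytosol.

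Genes that make ribosomes had 17 called lower and 0 higher of 40, with a median of -0.49, against 10.9% lower over all genes, and after rescaling 0 were called, with a median of -0.17. In nucleoplasm 30 of 40 fell and 0 rose, or 13 and 0 after rescaling, where 39.8% and 10.8% of all genes fell. Wdr75, a factor of the small subunit processome, had 41.4 and 41.5 FPKM in nucleoplasm at 4 h, against 63.2 and 66.1 FPKM there at 0 h, and 66.8 and 69.2 FPKM in cytosol at 4 h, against 61.9 and 66.4 FPKM there at 0 h, and its difference was -0.71 ± 0.11 (SE, adjusted p = 0.041). Wdr43, of the same complex, and Polr1a, the largest subunit of RNA polymerase I, differed by -0.61 and -0.65. Ribosomal protein genes were close to the typical gene, with 2 lower and 0 higher of 83 and a median of -0.29.

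Subunits of the exosome were mostly near or below the typical gene. Exosc2 itself had 3.45 and 3.01 FPKM in nucleoplasm at 4 h, against 5.39 and 5.84 FPKM there at 0 h, and 3.11 and 2.35 FPKM in cytosol at 4 h, against 2.74 and 2.88 FPKM there at 0 h. It fell in nucleoplasm, with a change of -0.65 ± 0.13 (SE, adjusted p = 0.00754) on the deposited values and -0.43 (adjusted p = 0.0725) after rescaling, and its difference of -0.61 ± 0.18 (SE, adjusted p = 0.0637) was not called. Since the degron removes the protein, this RNA does not check the depletion. Of 13 subunits 4 were lower and 1 higher, Exosc6, which is set out above, against 10.9% and 1.3% over all genes. Their median was -0.49, against -0.33 over all genes. Exosc10, the nuclear exonuclease of the complex, differed by -0.53 ± 0.12 (SE, adjusted p = 0.0427), and the ring subunits Exosc9 and Exosc8 by -0.57 and -0.46.

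Nuclear cofactors had 9 lower and 0 higher of 15, with a median of -0.54, against 10.9% lower over all genes. In nucleoplasm 12 fell, or 3 after rescaling, where 39.8% and 10.8% of all genes fell. Pabpn1, the nuclear poly(A)-binding protein of an exosome adaptor, had 62.2 and 63.1 FPKM in nucleoplasm at 4 h, against 79.7 and 93.7 FPKM there at 0 h, and 137 and 136 FPKM in cytosol at 4 h, against 105 and 103 FPKM there at 0 h. Its difference was -0.84 ± 0.14 (SE, adjusted p = 0.041), and -0.51 (adjusted p = 0.0986) after rescaling. Srrt, which links the cap to the exosome, fell in nucleoplasm and rose in cytosol, with a difference of -0.74 ± 0.12 (SE, adjusted p = 0.041). After rescaling its nucleoplasmic change was -0.067 (adjusted p = 0.565). Nvl, an ATPase that works with MTR4, differed by -0.54 ± 0.11 (SE, adjusted p = 0.0412). After rescaling 0 of the 15 cofactors and 0 of the 13 subunits were called.

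Export factors had 6 lower and 0 higher of 24, with a median of -0.41, against 10.9% lower and a median of -0.33 over all genes. Thoc2, a scaffold of the THO complex, differed by -0.71 ± 0.13 (SE, adjusted p = 0.041), and the export receptor genes Xpo1 and Nxf1 by -0.56 and -0.55. Cytoplasmic decay factors had 2 lower and 0 higher of 29, below the share of all genes, with a median of -0.36, and the decapping enzyme gene Dcp2 differed by -0.72 ± 0.14 (SE, adjusted p = 0.041). None of either list was called after rescaling.

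Naive pluripotency genes had 4 lower and 0 higher of 30, with a median of -0.37, both near the 10.9% and -0.33 of all genes. In nucleoplasm 23 fell, or 12 after rescaling, where 39.8% and 10.8% of all genes fell. In cytosol 5 fell, or 8 after rescaling, where 1.96% and 3.11% of all genes fell. Lefty2, an inhibitor of Nodal signalling, had 8.88 and 7.68 FPKM in nucleoplasm at 4 h, against 19.6 and 19.6 FPKM there at 0 h, and 4.02 and 4.05 FPKM in cytosol at 4 h, against 4.08 and 4.56 FPKM there at 0 h. Its nucleoplasmic groups stood far apart and its cytosolic groups close together, with a difference of -1.08 ± 0.14 (SE, adjusted p = 0.038). Lefty1 and the pluripotency regulator Prdm14 differed by -0.68 and -0.67. Prdm14 fell in both fractions. None of the 30 was called after rescaling.

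Cell cycle genes had 6 lower and 0 higher of 34, with a median of -0.42, against 10.9% lower over all genes, and after rescaling 0 were called, with a median of -0.10. Among them the topoisomerase gene Top2a differed by -0.71 ± 0.13 (SE, adjusted p = 0.041), and by -0.38 (adjusted p = 0.154) after rescaling. Zinc finger genes had 27 lower and 2 higher of 284, with a median of -0.26, close to the shares over all genes of 10.9% and 1.3%, and 0 either way after rescaling. The imprint regulator Zfp57 had 69.5 and 68.5 FPKM in nucleoplasm at 4 h, against 135 and 141 FPKM there at 0 h, and 67.5 and 71.4 FPKM in cytosol at 4 h, against 84.2 and 79.3 FPKM there at 0 h, with a difference of -0.75 ± 0.11 (SE, adjusted p = 0.041) that was -0.42 (adjusted p = 0.0927) after rescaling. Immediate-early genes had 1 lower of 26, Ctgf, at -0.97 ± 0.23 (SE, adjusted p = 0.0453) and -0.70 (adjusted p = 0.282) after rescaling, and genes of the integrated stress response 1 lower of 21, Slc3a2, at -0.74 ± 0.12 (SE, adjusted p = 0.041) and -0.41 (adjusted p = 0.184) after rescaling. Histone genes had 1 higher of 63, Hist1h4m, and a median of -0.35.

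Classes of short structured RNA lay on both sides of the typical gene, with small Cajal body RNAs and small nuclear RNAs well below it. The 16 small Cajal body RNAs, guides for the modification of small nuclear RNA, had 6 lower and 0 higher, against 10.9% lower over all genes. Their median was -0.72, and -0.38 after rescaling, where 1 was called lower. Scarna10 had 1303 and 1345 FPKM in nucleoplasm at 4 h, against 1950 and 2023 FPKM there at 0 h, and 174 and 192 FPKM in cytosol at 4 h, against 161 and 155 FPKM there at 0 h, and Scarna6 had 453 and 437 FPKM in nucleoplasm at 4 h, against 629 and 743 FPKM there at 0 h, and 86.6 and 72.5 FPKM in cytosol at 4 h, against 62.2 and 54.5 FPKM there at 0 h. Scarna6 is one of the 16, whereas Scarna10 is annotated as a small nucleolar RNA. Both fell in nucleoplasm, and their differences were -0.79 ± 0.15 (SE, adjusted p = 0.041) and -1.06 ± 0.19 (SE, adjusted p = 0.041), or -0.45 (adjusted p = 0.132) and -0.72 (adjusted p = 0.142) after rescaling. The 27 small nuclear RNAs had 5 lower and 0 higher, with a median of -0.92. Small nucleolar RNAs of the list split, with 5 higher and 5 lower of 64, against 1.3% and 10.9% over all genes. Snora64, which lies within Rps2, had 90.2 and 118 FPKM in nucleoplasm at 4 h, against 168 and 206 FPKM there at 0 h, and 12.9 and 18.6 FPKM in cytosol at 4 h, against 140.1 and 112 FPKM there at 0 h. It fell in both fractions, more in cytosol, and its difference was 2.10 ± 0.31 (SE, adjusted p = 0.041). After rescaling the nucleoplasmic change was -0.57 (adjusted p = 0.0644). RNAs this short are poorly measured by fragment counts per length.

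**Figure D4:**
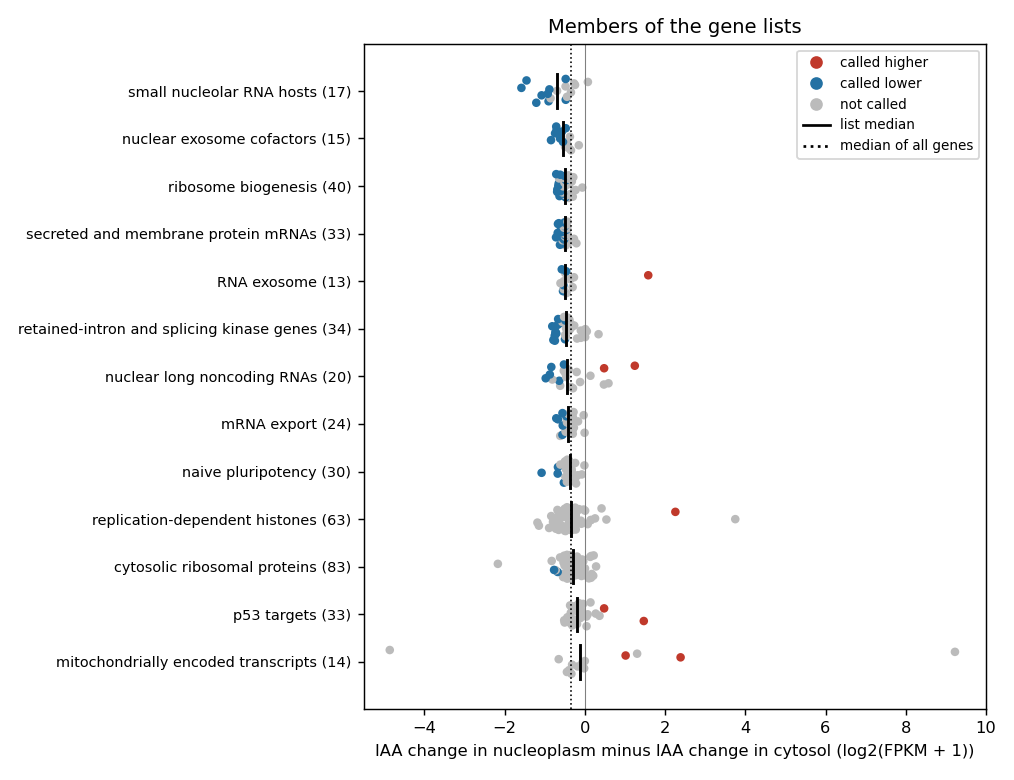
Each point is 1 tested member of a gene list at its difference between the fractions, with the number tested in brackets. Red and blue points were called, the bar is the list median and the dotted line the median of all genes, -0.33. Small nucleolar RNA hosts lie furthest to the left, with a median of -0.69, and ribosomal protein genes, p53 targets and mitochondrial transcripts lie to the right of the dotted line.

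Libraries that the comparison did not use were read for the same genes. Of the 172 genes called higher, 118 rose and 2 fell in whole-cell lysate at 4 h, where 5.74% of all tested genes rose and 13.5% fell. In the insoluble chromatin fraction 109 rose and 2 fell, where 7.95% rose and 0.867% fell over all genes. In separate total RNA of ESCs 75 of the 122 tested rose and 1 fell, against 4.47% and 21.2%. In nascent RNA 7 of 98 rose and 0 fell, against 1.57% and 0.338%. Genes that moved up in the nucleoplasm relative to the cytosol were thus mostly higher in the whole cell too.

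Of the 1443 called lower, 375 fell and 14 rose in lysate, with a median of -0.34 against -0.24 over all 13262 genes. In total RNA 513 of 1417 fell and 11 rose, with a median of -0.41 against -0.32. In the chromatin fraction 17 fell and 44 rose, with a median of 0.19 against 0.22, and in nascent RNA 4 of 1119 fell and 6 rose. Before IAA the 2 sets also differed in FPKM between chromatin and lysate. The median of chromatin minus lysate at 0 h was 0.06 for the genes called higher and -1.07 for those called lower, against -0.90 over all genes. Genes called higher were shorter, with a median span of 2.19 kb, against 26.7 kb for those called lower and 15.6 kb over all genes. They were also less abundant, with a median highest group mean of 4.20 FPKM, against 22.4 and 10.1 FPKM.

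**Figure D5:**
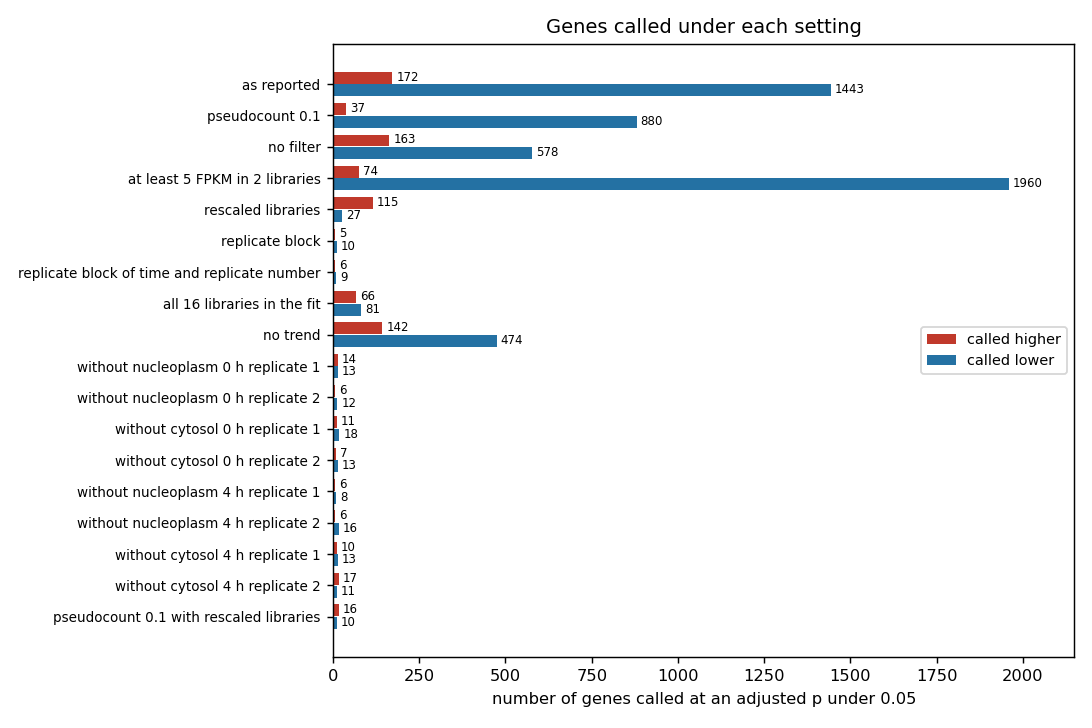
Bars give the number of genes called higher (red) and lower (blue) in the difference at an adjusted p under 0.05, under each setting on the vertical axis. The count of lower calls is 1443 on the deposited values and 27 on rescaled ones. Leaving out any 1 library leaves at most 17 higher and 18 lower.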

How the data were processed

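RNA of 8 libraries was measured after depletion of ribosomal RNA. The authors deposited FPKM per gene. The build was mm10, reads were aligned by TopHat2 (2.0.11) and values came from Cufflinks (2.0.2), per the submitters' processing notes. The sources used here give no strand, annotation or spike-in factor, and no spike-in transcripts are listed. Nascent RNA, used only for counts among the called genes, was deposited as RPKM by the authors, with bedtools named in the same notes. The 52885 identifiers were matched to symbols for 99.8%.

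Group means of log2(FPKM + 1) were fitted with limma 3.58.1 (trend, moderated, prior degrees of freedom 2.87) in R 4.3.3. Tables were read with data.table (version 1.17.8). Genes of at least 1 FPKM in 2 of the 8 libraries entered, and Benjamini-Hochberg adjustment ran over all 13262 of them, with a threshold of 0.05. The 3 contrasts were the change in nucleoplasm, the change in cytosol and their difference. Fold changes on this scale understate the change of low genes. Lysate and chromatin changes came from a fit of all 16 fraction libraries, and total and nascent RNA from their own tables. For rescaling, the ratio of each tested gene to its mean over the 8 libraries was taken, and a library was divided by its median ratio. Figures and lists used Python 3.11.15, pandas 2.3.3, numpy 2.4.6, scipy 1.17.1 and matplotlib 3.10.9.

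The method was tested on simulated data over 13262 genes for the difference between fractions, with 50 genes seeded at each size. A simulated log2 difference of 0.5 was recovered for 2% of genes, 1 for 52%, 1.5 for 84% and 2 for 82%. Among genes not seeded 7 were called, or 5.98% of the calls. Seeded genes had a mean of at least 5 FPKM, and the measured differences were removed first. The simulation thus held no general shift, and recovery of lower genes was not tested. A single value over 2 against 2 libraries cannot reach an exact permutation p under 0.333, so no such test was run.

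The members and lists were chosen with earlier results of these data known. Named genes were Exosc2, the 12 largest called differences each way with a mean of at least 5 FPKM in a group and the same sign in both replicate numbers, passing over clones and short RNAs, then per list the 4 members of smallest p, and leading genes of the noncoding classes. Part of these are printed. Alternatives were a pseudocount of 0.1, no filter, a minimum of 5 FPKM, rescaling, blocks by replicate number, a fit of 16 libraries, no trend and leaving out each library. Chosen after seeing the data were rescaling with the pseudocount of 0.1, the mean of at least 5 FPKM for classes, and the promoter motif. Other samples of the series were not analysed here.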

Additional observations from a re-analysis of the deposited data

Results flagged for a closer look

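The difference between the IAA changes of nucleoplasm and cytosol is itself a test of 2 effects against each other, so each called result appears here as a place where the fractions differed: 172 genes higher and 1443 lower. Groups of 2 libraries are too small for a search for outlying samples.

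Of 9 coding genes with a higher change in nucleoplasm than in cytosol that were also called after rescaling and at the pseudocount of 0.1, the rule for names gave Ltb4r2 at 2.12, Dcxr at 1.47, Ptp4a3 at 0.97, Rbm3 at 0.96 and Sp6 at 0.85 on the log2 scale. The other 4 were Azin2, an antizyme inhibitor, at 0.88, Parp11, an ADP-ribosyl transferase, at 0.68, Gm10518 at 1.11 and Gm17324 at 0.86, and were picked after their values were seen. Of 16 other genes called higher in these settings, those named are D830050J10Rik at 1.37, Gm26644 at 1.70, Snora64 at 2.10 and A930005H10Rik at 1.09. A930005H10Rik rose in nucleoplasm, with a change of 0.61 ± 0.11 (SE, adjusted p = 0.00593), and fell in cytosol, with a change of -0.49 ± 0.11 (SE, adjusted p = 0.0443), and it overlaps the coding gene Dph5.

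The 7 coding genes with a lower change in nucleoplasm than in cytosol in the same 3 settings were Camta1 at -3.46, Ttc17 at -1.28, Rec114 at -1.16, Sugp2 at -1.11, Eif4a2 at -1.07, Hexim1 at -0.92 and Akap8l at -0.92. Of 18 other genes called lower in these settings, those named are Snhg4 at -1.58, Snhg12 at -1.08, 4930566F21Rik at -1.43, 2810001G20Rik at -1.20 and Gm42418 at -3.20. Gm42418 had 77.6 and 81.5 FPKM in nucleoplasm at 4 h, against 2613 and 2428 FPKM there at 0 h, and 239 and 196 FPKM in cytosol at 4 h, against 661 and 827 FPKM there at 0 h, and it was called without each of the 8 libraries in turn. AY036118, a ribosomal RNA transcript, held between 0.269% and 10.3% of summed FPKM in single libraries, and the part of ribosomal RNA in the value of Gm42418 was not tested. Of the coding genes named here, Ltb4r2 was called in 1 of the 8 fits that left out a library and the others in 0.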

How the results depend on the processing

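All 1443 lower calls and 169 of the 172 higher calls kept their sign under every setting. The number called did not hold. Higher and lower genes numbered 37 and 880 at a pseudocount of 0.1, 163 and 578 with no filter, 74 and 1960 at a minimum of 5 FPKM, 115 and 27 after rescaling and 142 and 474 with no trend. They were 66 and 81 with all 16 libraries in the fit and 16 and 10 with the pseudocount of 0.1 and rescaling together. Leaving out 1 library gave 6 to 17 higher and 8 to 18 lower. In nucleoplasm 434 genes rose at a minimum of 5 FPKM, and 1427 fell after rescaling, 3319 with 16 libraries and 2344 to 5387 with 1 library left out (2344 to 3338 among those that moved). In cytosol 423 rose at a minimum of 5 FPKM and 339 to 589 with 1 library left out (339 to 493 among those that moved), while 134 fell with no filter, 413 after rescaling and 69 to 179 with 1 library left out (69 to 143 among those that moved).

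Deviations of replicates correlated weakly between groups, at 0.000638 to 0.0956. The highest values were those of nucleoplasm with cytosol of the same time, 0.0956 at 4 h and 0.0487 at 0 h. The next was 0.0409, between the nucleoplasm groups. The labels do not say whether nucleoplasm and cytosol of the same number came from the same cells. These correlations cannot settle it, and the main fit took all 8 libraries as independent. With replicate number as a block, the difference gave 5 higher and 10 lower, the block of time and replicate number gave 6 and 9, and 159 genes fell in cytosol.

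Class counts at the pseudocount of 0.1, after rescaling, and with both also moved. Noncoding classes had 10 higher, then 77, then 3, and 25 lower, then 6, then 2. Coding genes had 12, 24 and 5 higher and 808, 7 and 0 lower. Small nucleolar RNA hosts had 7, 2 and 0 lower, p53 targets 1, 1 and 1 higher, splicing genes 10, 0 and 0 lower, and mRNAs of secreted and membrane proteins 8, 0 and 0 lower. Of 96 printed genes, 3 single values changed sign, none of a called gene: Mdm2 ranged over -0.0012 to 0.14 with 1 library left out, below 0 without replicate 1 of nucleoplasm at 0 h, and Plk2 was 0.19 after rescaling and 0.22 with the pseudocount of 0.1 as well. The cause was not tested. Read depth is unknown, and 2 libraries a group set the precision.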

Other observations

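Short RNAs that were listed at 0 in whole groups stood out by their values. The 5 named here are among the genes counted as called in the difference, at both pseudocounts, after rescaling and without each library in turn. Each entered the test only through the libraries where it was above 0, so these calls are no further support. A 0 in a table of this kind can be a failed estimate. Snord69, a C/D box small nucleolar RNA, had 299 and 381 FPKM in nucleoplasm at 4 h and was listed at 0 in the other 6 libraries, as was Snord8, with 48.7 and 53.5 FPKM. The small nucleolar RNA Gm23969 did likewise, with 922 and 596 FPKM. Gm24452 had 642 and 922 FPKM in nucleoplasm at 0 h, and Snord11 had 280.3 and 266 FPKM in cytosol at 4 h, each with listed values of 0 elsewhere. No fold is given for any of them.

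Of the 1443 genes called lower, 19 fell in nucleoplasm and rose in cytosol on the deposited values, Hexim1, Akap8l, Gas5, Srrt and Camta1 among them, and on rescaled values 1 of 27 did. The 19 also included Utp3, a factor of ribosome assembly, with -0.31 in nucleoplasm and 0.78 in cytosol, Tmbim6, a membrane protein of the endoplasmic reticulum, with -0.42 and 0.45, and Pwwp2a, a chromatin protein, with -0.37 and 0.56. They were picked after their values were seen, and all 3 are on the log2 scale.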
